A study of Mus musculus with 6 samples.

Results

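S100 genes encode small calcium-binding proteins, and this account covers 10 of them in Tri-PyMT cells, the calgranulins S100a8 and S100a9 together with S100a7a, S100a3, S100a14, S100a16, S100a6, S100a10, S100a1 and S100a11. They were taken by symbol from a deposited table of 30743 features, and all 10 were found there. They were chosen by FPKM compared across all 3 groups of samples described below. Some were taken because they had been seen far higher with CTX and others because they had not. The CTX values of these genes are therefore a description here and carry no test. Tri-PyMT is a mouse mammary tumour line in which cells start out red and turn green for good once Cre recombinase, driven by the promoter of S100a4 (also called Fsp1), has been made. The 6 samples were RNA of cells grown with 10% serum and sorted by flow cytometry, in 3 groups of 2. The first was green (GFP+) cells, called EMT in the labels, from cultures given 4 µM 4-hydroperoxy-cyclophosphamide (CTX) for 7 days. The second was untreated GFP+ cells, and the third was untreated red (RFP+) cells, called non-EMT in the labels. CTX here is a preactivated form of the alkylating drug cyclophosphamide.

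S100 proteins bind calcium through EF hands and mostly work as dimers. S100a8 and S100a9 form calprotectin, which binds zinc and manganese and is secreted by neutrophils and by stressed or inflamed squamous epithelium, where it signals through the receptors Tlr4 and Ager. Others stay mainly inside the cell, such as S100a10 and S100a11, which bind annexins at membranes.

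Expression was given as FPKM, fragments scaled to transcript length and to sequencing depth, and depth was not stated. FPKM of low genes were whole multiples of what 1 fragment was worth, which put the depth of the samples at 0.723 to 1 of that of CTX replicate 1, lowest in untreated GFP+ replicate 1. Nothing in the labels tells if replicates were independent cultures, and p-values here rest on a spread between replicates that could be technical. The CTX samples lay closest together. Over genes whose fragments could be recovered, the median squared difference within the pair was 1.79 times counting noise for CTX, 18.4 times for untreated GFP+ and 18.3 times for RFP+ cells. Between CTX-treated and untreated GFP+ cells the median log2 difference over all 13080 genes tested was 0.25 as deposited and 0.01 after median-ratio scaling. For untreated GFP+ minus RFP+ cells these medians were -0.24 and 0.01. Deposited CTX differences from untreated GFP+ cells thus contain a shift of about 0.25, smaller for genes near 0 FPKM. It lay mostly in 1 sample. The log2 size factor used in scaling was -0.40 in untreated GFP+ replicate 1 and 0.01 in replicate 2. It was 0.09 in both CTX samples, and 0.13 and 0.07 in RFP+ samples.

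Both calgranulins were far higher with CTX, S100a9 by the most of any member. S100a8 had 157 and 156 FPKM in the CTX samples, against 43.4 and 15.8 FPKM in untreated GFP+ and 66.8 and 19.96 FPKM in RFP+ samples. The CTX samples lay above all 4 untreated samples, and in both untreated groups replicate 1 was the higher. Means were 156 ± 0.232 FPKM with CTX, 29.6 ± 19.5 FPKM in untreated GFP+ and 43.4 ± 33.1 FPKM in RFP+ cells (SD, n = 2 each). On the log2(FPKM + 1) scale, on which all differences are given and which understates those of low genes, S100a8 was 2.53 higher with CTX than in untreated GFP+ cells (2.25 after scaling) and 2.06 higher than in RFP+ cells. Without untreated GFP+ replicate 1 or 2 the first of these was 3.23 or 1.83. The untreated GFP+ and RFP+ samples enter more than 1 of these comparisons, which are therefore not independent.

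S100a9, the calprotectin partner of S100a8, had 57.7 and 59.1 FPKM in the CTX samples, against 0.293 and 0.225 FPKM in untreated GFP+ and 1.05 and 0.918 FPKM in RFP+ samples. No group overlapped another, and the gene was close to absent without CTX. It was 5.56 higher with CTX than in untreated GFP+ cells (5.42 after scaling) and 4.91 higher than in RFP+ cells. By size this placed it 11th from the top among the 13080 genes in CTX-treated minus untreated GFP+ cells, while S100a8 was 137th. Its FPKM were not whole multiples of 1 common unit, so the number of fragments behind them could not be recovered.

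The balance between the calprotectin genes differed with it. FPKM of S100a8 was 2.72 and 2.64 times that of S100a9 in the CTX samples. The same ratio was 148 and 70.3 in untreated GFP+ samples and 63.8 and 21.7 in RFP+ samples. Untreated cells of both colours thus had S100a8 RNA with little S100a9 RNA. The untreated ratios divide by S100a9 values of at most 1.05 FPKM with no recovered fragments, so their counting error is unknown. Within each colour the ratio was lower in replicate 2, as S100a8 itself was. The lowest ratio of an untreated sample, in RFP+ replicate 2, was still above both CTX values. S100a8 and S100a9 together made up 4.11% and 4.21% of the summed FPKM of all 18 S100 genes in the table in CTX samples, against 0.964% and 0.356% in untreated GFP+ and 1.32% and 0.549% in RFP+ samples.

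S100a7a, a mouse relative of the human skin protein psoriasin, had 5.77 and 5.23 FPKM in the CTX samples, against 0.0775 and 0.417 FPKM in untreated GFP+ and 0.123 and 0.245 FPKM in RFP+ samples. It reached an FPKM of 1 only with CTX and entered the fitted genes only through those samples. Its fragments were recovered as 103 and 88 in the CTX samples, 1 and 7 in untreated GFP+ and 2 and 4 in RFP+ samples. These are the smallest whole numbers that match the FPKM within 0.01 of a fragment. The exact Poisson 95% interval of the single fragment in untreated GFP+ replicate 1 ran from 0.0253 to 5.57, and that of the 88 fragments in CTX replicate 2 from 70.6 to 108. Such intervals cover counting error only.

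**Figure D1:**
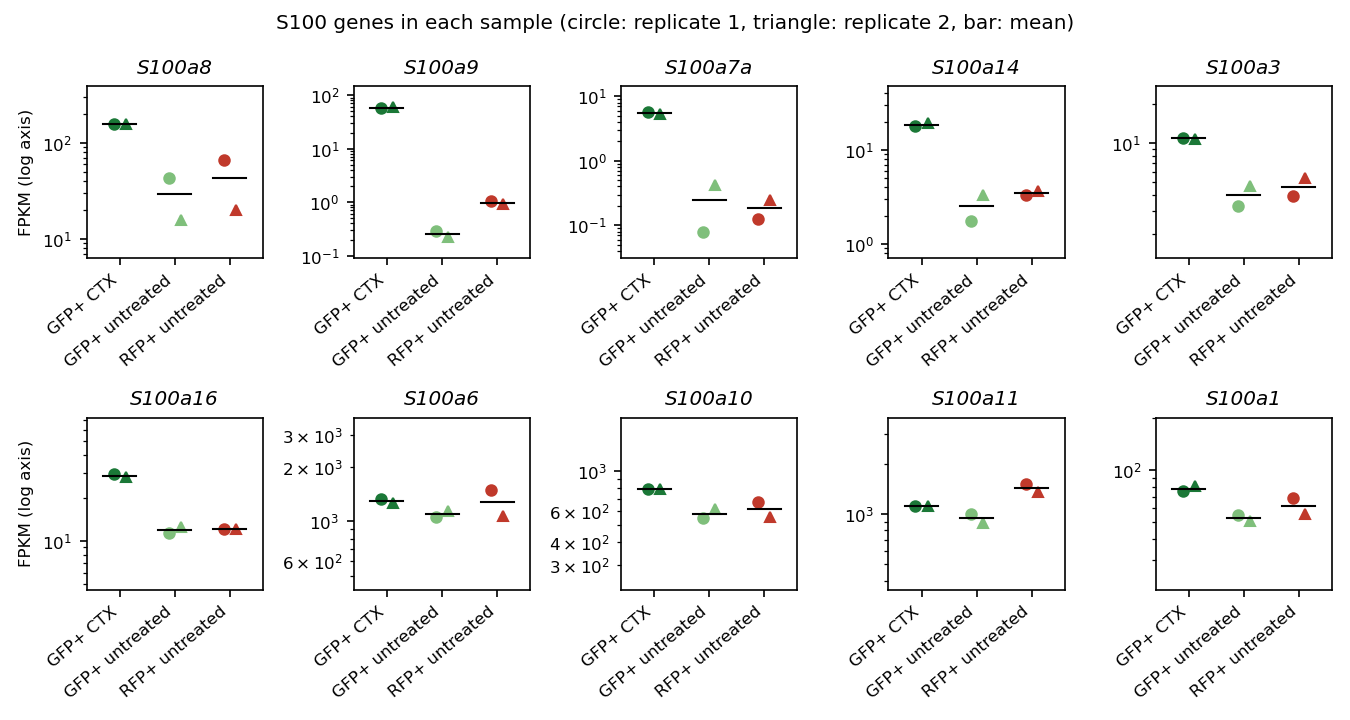
FPKM of the 10 S100 genes on log axes, 1 panel a gene, for CTX-treated GFP+, untreated GFP+ and untreated RFP+ cells from left to right. Circles are replicate 1, triangles replicate 2 and bars the mean. S100a9 stands at 57.7 and 59.1 FPKM with CTX and at or below 1.05 FPKM in all 4 untreated samples, while S100a6 overlaps between CTX and RFP+ samples.

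The stretches before the starts of S100a8, S100a9 and S100a7a, the members with the largest CTX differences that had an entry, are shown here beside that of S100a11, an abundant member whose CTX difference was small. Each holds the 250 bases upstream of the start on the strand of the gene, 5′ to 3′, from RefSeq on build GRCm38.p6. The FPKM were made on mm9, so these positions do not belong to the deposited table. Capitals mark matches to the motifs searched.
S100a8 (chr3:90668821-90669070, plus strand): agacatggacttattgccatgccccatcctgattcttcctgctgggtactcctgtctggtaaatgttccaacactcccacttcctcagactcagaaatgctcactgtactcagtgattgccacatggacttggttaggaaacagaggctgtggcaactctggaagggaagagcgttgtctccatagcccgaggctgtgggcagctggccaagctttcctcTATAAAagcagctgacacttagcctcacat
S100a9 (chr3:90695722-90695971, minus strand): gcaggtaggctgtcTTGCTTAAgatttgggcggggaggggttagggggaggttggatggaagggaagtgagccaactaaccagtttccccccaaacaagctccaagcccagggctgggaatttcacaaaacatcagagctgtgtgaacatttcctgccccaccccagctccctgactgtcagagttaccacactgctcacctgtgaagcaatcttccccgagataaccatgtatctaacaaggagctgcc
S100a7a (chr3:90654052-90654301, plus strand): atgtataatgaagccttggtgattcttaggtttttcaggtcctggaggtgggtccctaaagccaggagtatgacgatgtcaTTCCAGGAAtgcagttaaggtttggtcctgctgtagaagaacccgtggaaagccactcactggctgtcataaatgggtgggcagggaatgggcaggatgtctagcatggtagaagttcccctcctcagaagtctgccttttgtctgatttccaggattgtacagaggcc
S100a11 (chr3:93520246-93520495, plus strand): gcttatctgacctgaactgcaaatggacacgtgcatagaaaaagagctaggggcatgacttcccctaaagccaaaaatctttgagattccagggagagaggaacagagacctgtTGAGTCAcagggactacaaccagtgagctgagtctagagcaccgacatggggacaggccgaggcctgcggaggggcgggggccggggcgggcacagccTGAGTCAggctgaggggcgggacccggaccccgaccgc

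Each of these windows held a different set of motif letters. The S100a8 window had a TATA box (TATAAA, searched on the strand of the gene) from base -30 to -25 before the start, which 7.59% of the 32851 windows of this length in the table hold. The S100a9 window had the C/EBP motif TTGCNNAA from base -236 to -229 (9.56% of all windows), and the S100a7a window the STAT motif TTCNNNGAA from base -169 to -161 (7.02% of all windows). The S100a11 window held the AP-1 motif TGANTCA at 2 places, from base -136 to -130 and from -38 to -32 (6.75% of all windows). The NF-kB motif (0.356% of all windows) was in none of the 12 windows of the 8 members that matched the table. The antioxidant response element TGACNNNGC (10.2%), whose letters can overlap those of AP-1, was in 1 window each of S100a16 and S100a3, and the AHR core GCGTG (28.2%) in 1 window of S100a3. The other window of S100a16 held the AP-1 motif and another of S100a3 the TATA box. All motifs but the TATA box were searched on both strands, and a match or its absence describes only the letters of the window. S100a14 and S100a10 were not matched.

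A second set of members, less known in inflammation, was also higher with CTX. S100a14, an epithelial S100 protein, had 17.9 and 19.2 FPKM in the CTX samples, against 1.76 and 3.33 FPKM in untreated GFP+ and 3.33 and 3.67 FPKM in RFP+ samples. It was 2.498 higher with CTX than in untreated GFP+ cells (2.28 after scaling), close to S100a8 and S100a7a (2.39), and its untreated values were low in both colours. S100a3, a cysteine-rich protein known from the hair cuticle, had 11.02 and 10.9 FPKM with CTX, against 3.28 and 4.72 FPKM in untreated GFP+ and 3.90 and 5.38 FPKM in RFP+ samples. S100a16, a broadly expressed member, had 29.3 and 28.1 FPKM with CTX, against 11.4 and 12.4 FPKM in untreated GFP+ and 12.0 and 12.2 FPKM in RFP+ samples. Both genes had CTX values above every untreated value and differences of 1.27 and 1.20 from untreated GFP+ cells, less than that of S100a14. After scaling that of S100a3 was 1.04 and that of S100a16 0.93. The fragments of S100a3 were 186 and 173 with CTX, 40 and 75 in untreated GFP+ and 60 and 83 in RFP+ samples. In RefSeq the S100a3 and S100a2 genes overlap, so fragments there may have been divided between them.

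The abundant members moved little. S100a6, or calcyclin, had 1317 and 1264 FPKM in the CTX samples, against 1048 and 1143 FPKM in untreated GFP+ and 1493 and 1066 FPKM in RFP+ samples. S100a11, a partner of annexin A1, had 1119 and 1112 FPKM with CTX, against 1005 and 883 FPKM in untreated GFP+ and 1506 and 1358 FPKM in RFP+ samples. For S100a6 the CTX values fell between the RFP+ values, and for S100a11 the CTX samples were below both RFP+ samples and above both untreated GFP+ samples. Against untreated GFP+ cells the differences were 0.24 for both as deposited, no more than the shift over all genes, and -0.05 for S100a6 and -0.04 for S100a11 after scaling. S100a11 also has an annotated pseudogene, S100a11-ps on chromosome 12, which may share its fragments.

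S100a10, which binds annexin A2 as the p11 subunit, had 798 and 792 FPKM in the CTX samples, against 544 and 611 FPKM in untreated GFP+ and 670.4 and 552 FPKM in RFP+ samples. S100a1, best known from heart and skeletal muscle, had 75.5 and 81.1 FPKM with CTX, against 54.8 and 50.6 FPKM in untreated GFP+ and 68.6 and 55.4 FPKM in RFP+ samples. In both genes the CTX samples were the highest, by less than 1 log2 unit. Their differences from untreated GFP+ cells were 0.46 and 0.56 as deposited, and 0.18 for S100a10 and 0.28 for S100a1 after scaling. S100a1 overlaps its neighbour S100a13 in RefSeq.

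Counted together, both CTX samples were above both untreated GFP+ samples in all 10 members, as in 51.9% of the genes tested (12.4% were below). Against RFP+ samples they were above in 8 members, as in 39.5% of the genes tested, and below in S100a11 alone, as in 37.7%. The 8 were also above all 4 untreated samples, as were 34.1% of the genes tested. A difference of at least 1 log2 unit without overlap was found in 6 of 10 members against untreated GFP+ cells (9.79% of the genes tested), in 6 against RFP+ cells (8.4%) and in 6 against both (6.61%). These counts follow from how the genes were picked. The median CTX difference of the 10 members from untreated GFP+ cells was 1.24, beside 0.25 over all genes tested. In sorted pools a larger share of cells with a gene switched on and more RNA per cell cannot be told apart. Nor can the drug be told apart from the 7 days of treated culture, since no time is given for the untreated cells, or from survival of some of the cells.

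**Figure D2:**
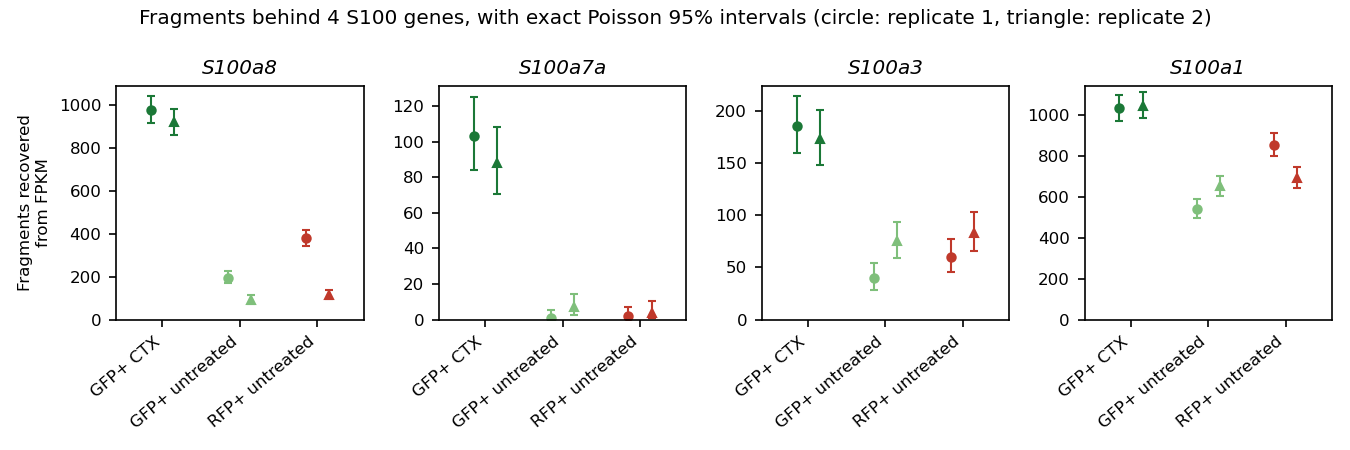
Fragments recovered from the FPKM of S100a8, S100a7a, S100a3 and S100a1 in CTX-treated GFP+, untreated GFP+ and RFP+ samples, on linear axes from 0. They are not corrected for depth, which in untreated GFP+ replicate 1 was 0.723 of that of CTX replicate 1. Whiskers are exact Poisson 95% intervals, circles replicate 1 and triangles replicate 2. The S100a8 intervals of replicates 1 and 2 lie apart in both untreated groups and overlap with CTX.

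Replicates of the untreated groups differed in S100a8 by more than counting error. Its fragments were 979 and 921 in the CTX samples, 196 and 93 in untreated GFP+ and 380 and 114 in RFP+ samples. Replicate 2 minus replicate 1 was -0.0030 log2 units with CTX, -1.40 in untreated GFP+ and -1.69 in RFP+ cells. S100a8 was the only member that fell by at least 1 log2 unit in this way in both colours, as 0.275% of the genes tested did. For S100a9 the same quantity was -0.08 in untreated GFP+ and -0.09 in RFP+ cells, so it did not follow S100a8 across the untreated samples. The 9 other members differed by at most 0.65 within an untreated pair.

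Untreated GFP+ and RFP+ cells were compared to see whether S100 genes differ with EMT status without drug. Values of both groups were among those compared when the genes were picked, although only differences with CTX were named. The untreated GFP+ samples also stand on the low side of those differences. The p-values of members below are therefore not free of that choice. Of the 10 members 0 passed limma after Benjamini-Hochberg adjustment over 13080 genes, where 1.9% of all genes tested passed, 0.115% as higher and 1.78% as lower in GFP+ cells. Unadjusted limma p-values under 0.05 were found for 2 of 10 members, close to the 17.7% of all genes tested. That share stands for 2316 genes with the spread taken from all 6 samples, against 1134 genes in the 4 untreated samples alone. None passed after median-ratio scaling. S100a9 came nearest, with GFP+ samples at 0.293 and 0.225 FPKM and RFP+ samples at 1.05 and 0.918 FPKM, which did not overlap. These values are low, and only that of RFP+ replicate 1 reached 1 FPKM. S100a9 thus entered the fit only with the help of the CTX samples, and S100a7a through them alone. No conclusion is drawn from the p-values of either. The log2 difference of S100a9 was -0.65 (SE 0.16, limma adjusted p = 0.131) and lay between -1.60 and -0.19 over 17 alternative settings. With a pseudocount of 0.1 it passed (limma adjusted p = 0.0371). Without untreated GFP+ replicate 2 the difference of S100a9 was -0.62, and that of S100a14 was -0.70, against -0.38 with all samples.

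S100a11 had the second-lowest p among the members, with 944 ± 86.4 FPKM in GFP+ and 1432 ± 105 FPKM in RFP+ cells (SD, n = 2 each). Its log2 difference of -0.60 (SE 0.21, limma adjusted p = 0.234) became -0.31 after scaling (adjusted p = 0.646). That SE rests on the spread of all 6 samples, the close CTX pair among them. In the 4 untreated samples alone the SE of S100a11 was 0.35 (limma adjusted p = 0.673). GFP+ samples also lay below RFP+ samples without overlap in S100a1, so that 3 of 10 members did so, where 41.5% of the genes tested did as deposited. GFP+ samples lay above RFP+ samples in no member (4.95% of the genes tested), and no member differed without overlap by at least 1 log2 unit (0.528%). In the other 7 members the samples of the colours overlapped. S100a8 had a difference of -0.46 with an SE of 0.62 (limma adjusted p = 0.676), so the spread between its replicates exceeded the difference. The S100a4 tracer gene itself had 1785 and 1754 FPKM in GFP+ samples, against 1261 and 704 FPKM in RFP+ samples, and did not pass (log2 difference 0.91, SE 0.31, limma adjusted p = 0.222). It passed after quantile normalization (adjusted p = 0.0438).

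The order of levels showed 4 genes far above the rest of the family. S100a4, S100a6, S100a11 and S100a10 held 92.2% and 91.9% of the summed S100 FPKM in CTX samples, 96.7% and 97.4% in untreated GFP+ and 96.2% and 96.8% in RFP+ samples. The sum itself was 5211 and 5122 FPKM with CTX, 4531 and 4506 FPKM in untreated GFP+ and 5123 and 3801 FPKM in RFP+ samples. In CTX-treated cells the order went on with S100a8, S100a1, S100a9, S100a13, S100a16, S100a14, S100a3 and S100a7a, and no neighbours in it overlapped. In untreated GFP+ cells S100a1 came next after these 4, followed by S100a8 and S100a13, which overlapped, then S100a16, and S100a3 and S100a14, which overlapped. S100a9 and S100a7a were at the low end there, among genes that overlapped one another. In RFP+ cells S100a11, S100a6 and S100a4 overlapped in turn at the top, as did S100a1, S100a8 and S100a13 below S100a10.

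Of the 8 other S100 genes in the table, 3 entered the fit. S100b, a glial member on chromosome 10, had 1.28 and 1.45 FPKM with CTX, against 0.486 and 0.395 FPKM in untreated GFP+ and 0.386 and 0.316 FPKM in RFP+ samples, and reached 1 FPKM only with CTX. Its log2 difference from untreated GFP+ cells was 0.71, for which no test is given because the gene entered the fit only through the CTX samples. S100a13, which takes part in release of proteins without a signal peptide, had 50.05 and 51.6 FPKM with CTX, against 32.3 and 26.2 FPKM in untreated GFP+ and 36.7 and 21.97 FPKM in RFP+ samples. S100a4 had 1569 and 1539 FPKM with CTX and so lay below both untreated GFP+ samples. Neither S100a13 nor S100a4 passed in this comparison (limma adjusted p = 0.0997 and 0.720). The rest stayed low, with at most 2.12 FPKM for S100a2, 0.84 FPKM for S100a5, 0.116 FPKM for S100g and 0.111 FPKM for S100a7l2, and S100z was listed at 0 in every sample. Of 7 genes for fused-type S100 proteins, long epidermal proteins that begin with an S100 domain, only repetin (Rptn) entered the fit, through the CTX samples alone, at 1.88 and 1.999 FPKM with CTX, against 0.0106 and 0.00811 FPKM in untreated GFP+ and 0.00838 and 0.0167 FPKM in RFP+ samples (log2 difference from untreated GFP+ cells 1.54, given without a test for the same reason).

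**Figure D3:**
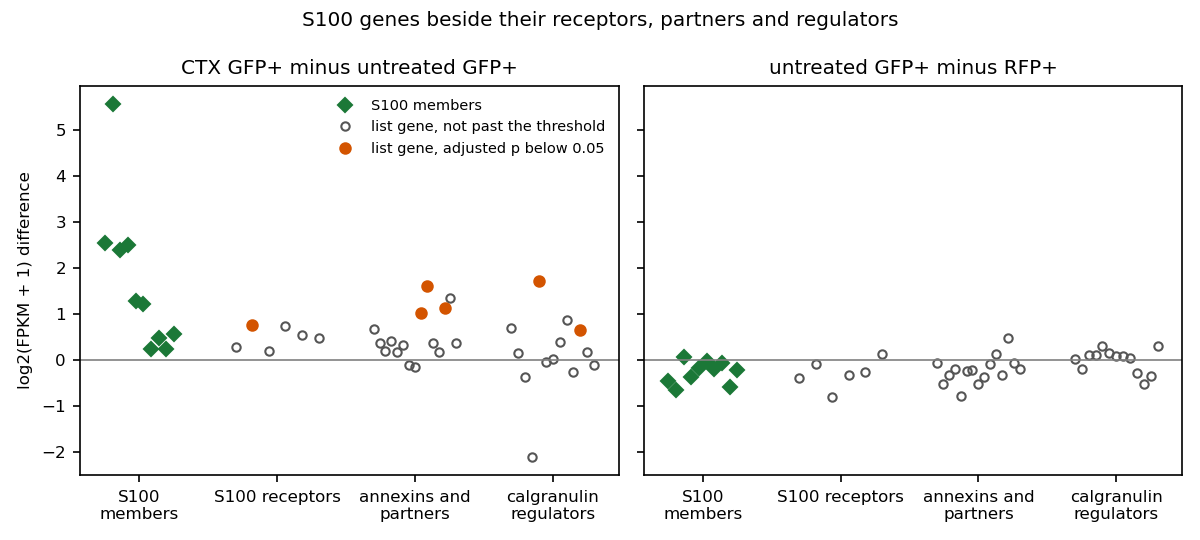
Differences in log2(FPKM + 1) for CTX-treated minus untreated GFP+ cells (left) and untreated GFP+ minus RFP+ cells (right), for the 10 S100 genes and for the tested genes of 3 lists. Filled orange points are list genes with a limma adjusted p below 0.05, and no test is drawn for the S100 genes. In the left panel 6 S100 genes lie above 1, and in the right panel no list gene passed.

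Receptors and partners of S100 proteins were tested between CTX-treated and untreated GFP+ cells. Of all genes tested 12.8% passed there, 12.3% as higher and 0.474% as lower with CTX. Of 6 receptor genes tested 1 was higher, Bsg, a receptor of S100a9, with 605 and 593 FPKM in CTX against 343 and 363 FPKM in untreated GFP+ samples (log2 difference 0.76, SE 0.19, limma adjusted p = 0.0497). The call was lost in 8 of 17 alternatives, among them averaging of the CTX pair, and scaling (adjusted p = 0.116). It was kept in the 4 samples compared alone (limma adjusted p = 0.0404). Tlr4 had 13.2 and 14.1 FPKM with CTX, against 8.50 and 10.7 FPKM in untreated GFP+ samples (limma adjusted p = 0.180). Ager, the receptor RAGE, had 1.88 and 1.59 FPKM with CTX, against 0.607 and 2.15 FPKM in untreated GFP+ samples. Cd36 was not tested and had at most 0.0377 FPKM. The median difference over the receptors was 0.50 (0.24 after scaling).

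Of 15 annexin and partner genes tested, 3 were called higher with CTX and none lower, where 12.3% of all genes tested were called higher and 0.474% lower. Anxa8 had 189 and 183 FPKM in CTX, against 42.2 and 86.9 FPKM in untreated GFP+ samples (log2 difference 1.60, SE 0.36, limma adjusted p = 0.0338; 0.0414 scaled). Plat, the tissue plasminogen activator that S100a10 can bind, had 45.3 and 44.8 FPKM with CTX, against 16.0 and 24.98 FPKM in untreated GFP+ samples (log2 difference 1.13, SE 0.24, limma adjusted p = 0.0294; 0.0256 scaled). Anxa7 had 56.3 and 54.6 FPKM with CTX, against 27.0 and 27.1 FPKM in untreated GFP+ samples (log2 difference 1.01, SE 0.20, limma adjusted p = 0.0254) and did not pass after scaling (adjusted p = 0.0651). Calls of Anxa8, Plat and Anxa7 were lost in 7, 8 and 5 of 17 alternatives, each time with the close CTX pair averaged among them. In the 4 samples compared alone the limma adjusted p was 0.0899 for Anxa8, 0.0813 for Plat and 0.0320 for Anxa7. Neither Anxa2, which carries S100a10, nor Anxa1 passed (limma adjusted p = 0.226 and 0.521). After scaling Anxa6 was called lower (log2 difference -0.44, adjusted p = 0.0343). The median over this list was 0.36 (0.08 after scaling), beside 0.25 over all genes tested.

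Among 13 tested regulators that are known to act on the calgranulin genes, 2 were called higher with CTX and none lower. Of all genes tested 12.3% were called higher and 0.474% lower. Fosl1, an AP-1 subunit, had 29.0 and 28.7 FPKM in CTX, against 6.08 and 10.7 FPKM in untreated GFP+ samples (log2 difference 1.72, SE 0.35, limma adjusted p = 0.0252; 0.0386 scaled). Rela, an NF-kB subunit, had 35.5 and 36.3 FPKM with CTX, against 21.6 and 23.8 FPKM in untreated GFP+ samples (log2 difference 0.64, SE 0.16, limma adjusted p = 0.0442) and did not pass after scaling (adjusted p = 0.0895). The call of Fosl1 was lost in 6 and that of Rela in 11 of 17 alternatives, both with the CTX pair averaged among them. In the 4 samples compared alone the limma adjusted p was 0.0540 for Fosl1 and 0.0736 for Rela. After scaling Nfkb1 was called lower (log2 difference -0.54, adjusted p = 0.0340). Fos had 45.1 and 43.5 FPKM with CTX, against 98.8 and 386 FPKM in untreated GFP+ samples, and did not pass (limma adjusted p = 0.0796). Cebpb and Stat3 had differences of 0.15 and 0.17 and did not pass (limma adjusted p = 0.619 and 0.561). The median over the regulators was 0.15 (-0.13 after scaling). Cebpe and the myeloid factor Spi1, with at most 0.0799 FPKM, were not tested. In untreated GFP+ minus RFP+ cells 0 genes of the receptor, partner and regulator lists passed limma, and 1 of 6, 2 of 15 and 1 of 13 had unadjusted p-values below 0.05, where 17.7% of all genes tested had.

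Among markers of other cells that make calgranulins, most neutrophil genes were near 0, and the 3 that were not were Ltf, Cxcr2 and Camp. Of 12 measured neutrophil markers, 9 were below 1 FPKM in every sample, Ngp and Retnlg were listed at 0 in all, and the leukocyte gene Ptprc reached at most 0.0128 FPKM. The summed list was 69.9 and 68.1 FPKM in CTX, 9.26 and 19.7 FPKM in untreated GFP+ and 24.97 and 48.0 FPKM in RFP+ samples, of which lactoferrin (Ltf), also a mammary gene, held 64.9 and 62.6 FPKM with CTX. Cxcr2, a chemokine receptor, had 2.83 and 3.14 FPKM in CTX, 1.33 and 4.22 FPKM in untreated GFP+ and 2.20 and 3.46 FPKM in RFP+ samples, which overlapped. Camp, the cathelicidin gene, had 1.45 and 1.62 FPKM with CTX and at most 0.527 FPKM in any untreated sample. CTX values were above all untreated values in 5 of 12 of these genes, against 24.5% of all features in the table. Only 21949 features were above 0 in any sample, which lowers that share. Among the 5 genes, Mpo, Elane and Ptprc had at most 0.0891 FPKM, too low for their order to be read. Of 8 macrophage markers 6 were below 1 FPKM in every sample, Adgre1 was listed at 0, and those that were not below it were Cd68 and Lyz2. Cd68 had 30.9 and 29.8 FPKM with CTX, against 3.0 and 6.30 FPKM in untreated GFP+ samples. Lyz2 had 2.17 and 2.10 FPKM with CTX, against 0.195 and 0.637 FPKM in untreated GFP+ and 0.155 and 0.174 FPKM in RFP+ samples. The macrophage list summed to 34.1 and 32.9 FPKM in CTX, 3.28 and 7.11 FPKM in untreated GFP+ and 4.07 and 4.33 FPKM in RFP+ samples. CTX was above all untreated values in 5 of 8 of its genes, beside the same 24.5%, and Ptprc is counted in both lists.

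Most markers of cornifying keratinocytes were, like the calgranulins, highest with CTX. CTX values were above all untreated values in 8 of 9 of them, against 24.5% of all features in the table, those at 0 throughout included. The list summed to 170.2 and 154 FPKM in CTX, 7.55 and 15.8 FPKM in untreated GFP+ and 17.2 and 25 FPKM in RFP+ samples. Suprabasin (Sbsn) held 153 and 137 FPKM of this with CTX, Krtdap 9.69 and 9.35 FPKM and involucrin (Ivl) 6.15 and 5.82 FPKM. The late keratin Krt1 and loricrin (Lor) had at most 0.0285 and 0.0418 FPKM in any sample, and 6 of 9 stayed below 1 FPKM throughout. The part of such cells in the S100 values was not tested. Markers were also set beside the sort labels, EMT for GFP+ and non-EMT for RFP+ cells. Mammary epithelial markers (Epcam, Cdh1, Krt8, Krt18 and Krt19) were highest in RFP+ cells. They summed to 287 and 274 FPKM in CTX, 136 and 275 FPKM in untreated GFP+ and 617 and 859 FPKM in RFP+ samples. Mesenchymal markers (Vim, Fn1, Cdh2, Pdgfra and Dcn) summed to 2548 and 2521 FPKM in CTX, 1519 and 2250.1 FPKM in untreated GFP+ and 1245 and 1284 FPKM in RFP+ samples. Vim and Fn1 held most of these sums. CTX values were above all untreated values in 2 of these 5 genes, Fn1 and Dcn. With CTX, Cdh2 was below both untreated GFP+ samples, and Vim and Pdgfra overlapped them.

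**Figure D4:**
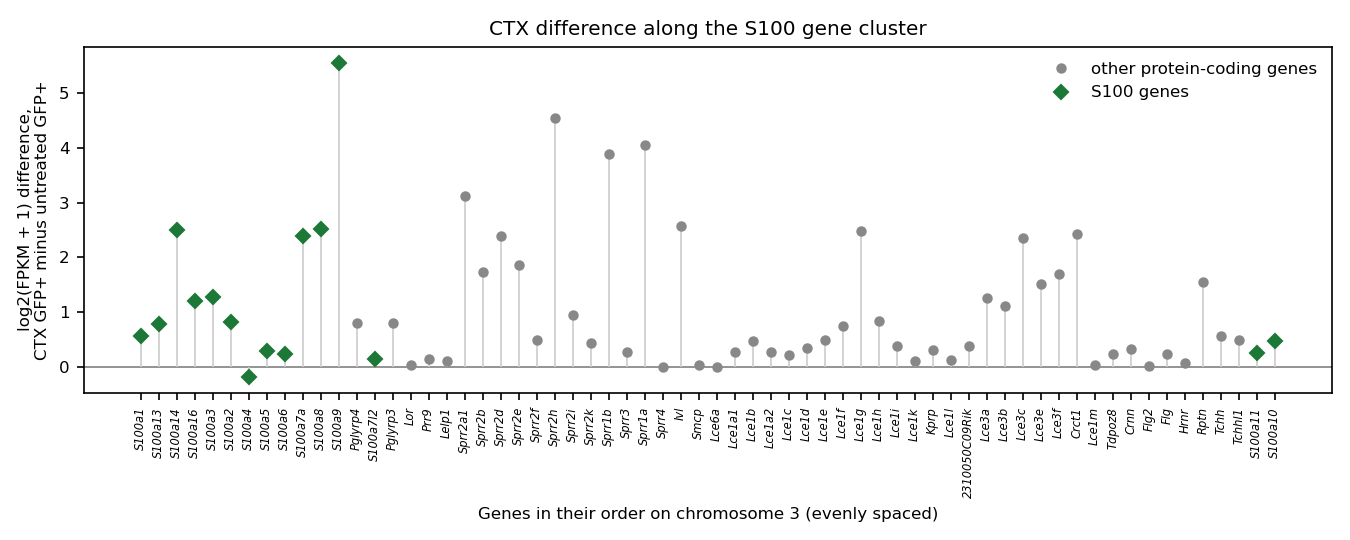
Differences in log2(FPKM + 1) between CTX-treated and untreated GFP+ cells for genes in their order along the S100 cluster of chromosome 3, evenly spaced. Green diamonds are S100 genes and grey circles other protein-coding genes. S100a9 has the largest difference (5.56), at the end of a run of S100 genes, and genes of the SPRR family after it reach 4.56.

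All 10 members lie in 1 cluster on chromosome 3, and the order of genes there was taken from RefSeq. From S100a1 to S100a9 the cluster holds S100 genes alone. After S100a9 come 56 protein-coding genes, S100a7l2 among them and most of them for proteins of the cornified envelope of skin, and then S100a11 and S100a10. Within the run the members with a CTX difference above 1 did not form 1 block. S100a14, S100a16 and S100a3 lie side by side, followed by S100a2, S100a4, S100a5 and S100a6, of which S100a4 had a difference of -0.19, and then by S100a7a, S100a8 and S100a9.

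The genes between S100a9 and S100a11 were largely silent without CTX. Of 49 protein-coding genes in the table that lie in the cluster and are not S100 genes, 17 were listed at 0 in all 4 untreated samples and 29 were below 1 FPKM in every sample. CTX values were above all untreated values in 42 of the 49, against 24.5% of all 30743 features, those at 0 throughout included. Of the 17 that were tested 15 entered only through the CTX samples, so no count of calls is given for them. The largest differences among them were those of Sprr2h, Sprr1a, Sprr1b, Sprr2a1 and Ivl, at 4.56, 4.05, 3.89, 3.12 and 2.58. All are cornified envelope genes, and SPRR genes are close copies among which fragments may have been divided. Sprr2h had 27.5 and 22.4 FPKM with CTX, against 0.0767 and 0.118 FPKM in untreated GFP+ and 0.0609 and 0.0606 FPKM in RFP+ samples.

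Genes with profiles most like those of S100a9, S100a8 and S100a14 were looked for among 11630 other protein-coding genes, by the root mean square difference of log2(FPKM + 1) profiles centred over the 6 samples. Nearest to S100a9 was Stfa3, a stefin that inhibits cysteine proteases, at 0.26, with 30.1 and 29.3 FPKM with CTX, a listed value of 0 in each untreated GFP+ sample, and 0.318 and 0.158 FPKM in RFP+ samples. Its levels, like those of S100a9, were lowest in untreated GFP+ cells, a likeness that the search itself favours. Sprr2h (0.43), Sprr1a (0.64), Sprr1b (0.70) and Bglap (0.75), the gene of osteocalcin, came next. Nearest to S100a8 were 2610528A11Rik (0.33), the Ly6 surface protein genes Ly6c2 (0.35) and Ly6c1 (0.40), the stress-response gene Ndrg1 (0.38) and the receptor subunit Ramp3 (0.49). In all 5 of these replicate 1 was above replicate 2 in both untreated groups, as in S100a8, for whose profile over all 6 samples they were picked. Nearest to S100a14 were the transcription factor gene Irf5 (0.09), Lce1g (0.13), Prxl2a (0.13), Apol7a (0.13) and the melanosome regulator Mreg (0.13). The calgranulins were 1.51 apart by this measure, which also counts the size of a difference. S100a9 was 10869th in the order of likeness to S100a8, while S100a8 was 144th in that of likeness to S100a9.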

How the data were processed

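RNA of sorted cells was made into libraries with a TruSeq RNA kit from 16 to 33 ng of total RNA, per the labels. The authors deposited 1 table of FPKM values. The submitters' processing notes list mm9 as the build and name HTSeq, Cufflinks, TopHat, FastQC and CASAVA 1.8.2, and their order, settings and annotation are not given in the sources used here. A fold column held no numbers and was not used, and 25 symbols turned into dates were left unnamed. Older symbols were matched through RefSeq.

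The fit was limma 3.58.1 (R 4.3.3) on log2(FPKM + 1), with an intensity trend and 1 model of 6 samples (3 residual degrees of freedom), over the 13080 features that reached 1 FPKM in 2 or more samples. Tests were two-sided, with Benjamini-Hochberg adjustment over all 13080 and a threshold of 0.05. Median-ratio scaling divided each sample by its median ratio to the geometric mean over genes. It was tried as an alternative, as were other pseudocounts, filters, moderation, a replicate block and leaving out each sample. The procedure was tested on simulated data. Fragments were recovered for 5943 of 18364 features above 0 in at least 4 samples (32.4%), using low values (under 0.5 FPKM) to set the worth of 1 fragment in each sample. No count test was run.

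The members, lists, markers and tests were chosen with earlier results of these data known. Every S100 gene is named. List genes were named where called, at most 6 a list, cluster genes by the 5 largest differences, and profile neighbours as the 5 nearest. Tlr4, Ager, Cd36, Anxa1, Anxa2, Anxa6, Nfkb1, Fos, Cebpb, Stat3, Cebpe and Spi1 were named after their values were seen. Python 3.11.15 and matplotlib 3.10.9 were used.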

Additional observations from a re-analysis of the deposited data

How the results depend on the processing

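Counts of called genes depended on the setting. With limma 248 genes were called in untreated GFP+ minus RFP+ cells, and 3 without the filter, 90 with a mean FPKM of at least 5, 382 with robust moderation, 112 in the 4 samples alone and 137 with the CTX pair averaged, an alternative chosen after the data were seen. Without 1 sample the count lay between 0 and 4804. It was 0 without either RFP+ sample (1317 and 2554 at an unadjusted p under 0.05), and 109 or 4804 without untreated GFP+ replicate 1 or 2. In CTX-treated minus untreated GFP+ cells 1669 were called, and 558 with a mean FPKM of at least 5, 2881 with quantile normalization, 699 in the 4 samples alone and 442 with the CTX pair averaged, and between 550 and 5888 without 1 sample (5888 without untreated GFP+ replicate 2). Higher calls were 1607 of 1669 as deposited, 1592 of 2461 after median-ratio scaling and 1404 of 2881 after quantile normalization. In untreated GFP+ minus RFP+ cells they were 15 of 248, 134 of 363 and 128 of 368.

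The labels share replicate numbers across groups without saying what they stand for. With the replicate block 959 and 2999 genes were called. Deviations of same-numbered samples correlated over genes at 0.30 between untreated GFP+ and RFP+, at -0.11 between CTX and untreated GFP+ and at -0.04 between CTX and RFP+. With the block no member passed in untreated GFP+ minus RFP+ cells.

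The 6 members with large CTX differences kept their direction in every alternative in which they were fitted (17 each, and 14 for S100a7a, which left the fit with a mean FPKM of at least 5 and without either CTX sample), with S100a9 between 3.59 and 7.35, S100a8 between 1.83 and 3.23, S100a14 between 1.65 and 2.88, S100a7a between 1.0 and 4.21, S100a16 between 0.92 and 1.26 and S100a3 between 0.83 and 1.48, against untreated GFP+ cells. For S100a9, S100a7a and S100a14 both bounds came from pseudocounts of 5 and 0.1, and for S100a8 from leaving out an untreated GFP+ sample. Small differences changed sign. In untreated GFP+ minus RFP+ cells those of S100a3, S100a16, S100a6, S100a10 and S100a1 became 0.0547, 0.25, 0.0864, 0.21 and 0.0637 with median-ratio scaling and 0.0445, 0.25, 0.20, 0.28 and 0.0817 with quantile normalization. Without 1 sample S100a8 lay between -1.31 and 0.38, S100a7a between -0.13 and 0.26, S100a3 between -0.39 and 0.0323, S100a16 between -0.0795 and 0.0371, S100a6 between -0.45 and 0.0371 and S100a10 between -0.22 and 0.0630. In CTX-treated minus untreated GFP+ cells S100a6 and S100a11 became -0.0478 and -0.0417 with median-ratio scaling, and in CTX-treated minus RFP+ cells S100a6 lay between -0.21 and 0.27 without 1 sample. The causes were not tested. With few fragments, such as the 1 to 7 of S100a7a in untreated samples, order among untreated groups could not be resolved.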
